A study of Mus musculus with 16 samples.

Results

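The miR-30 family in mouse serum was followed through its 5 mature 5p members, mmu-miR-30a-5p, mmu-miR-30b-5p, mmu-miR-30c-5p, mmu-miR-30d-5p and mmu-miR-30e-5p, which were taken by name from the 1881 mouse miRNAs on the array and are written without the species prefix from here on. Serum had been prepared from heart blood of male mice aged 4, 8, 36 or 58 weeks, with 4 mice at each age and 1 Agilent array per mouse, and the question of the series was which serum miRNAs change as mice age. The labels give every group as male and name no treatment, genotype or strain, so age is the stated difference between the groups. From each serum 1.0 ng of RNA was labelled with Cy3 and read in 1 colour. Because a fixed mass of RNA was labelled, a signal is a share of the RNA that was put in, and a change in how much of a miRNA reaches the serum cannot be told apart from a change in the rest of the RNA.

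A miRNA is a short RNA that pairs with messenger RNAs mainly through its seed, bases 2 to 8, and lowers their stability or translation. Members of the miR-30 family carry the same seed and can therefore share targets. The family is abundant in kidney, heart and skeletal muscle, and is known for restraining autophagy genes such as Becn1 and the fibrosis-associated growth factor gene Ctgf. In serum, miRNAs circulate in vesicles and bound to protein or lipoprotein, and come from blood cells as well as from solid tissues.

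The mature sequences show what a probe has to tell apart, and RefSeq entries (GRCm38.p6) were matched by name for 3 of the 5 members. They are written 5′ to 3′ with the seed in capitals, and miR-30a-3p, from the opposite arm of the Mir30a hairpin, is given for contrast since its seed differs.
miR-30a-5p: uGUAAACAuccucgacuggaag
miR-30e-5p: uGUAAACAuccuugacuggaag
miR-30c-5p: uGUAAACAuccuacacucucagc
miR-30a-3p: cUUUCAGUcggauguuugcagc

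miR-30a-5p lies at chr1:23272274-23272295 on the plus strand. miR-30e-5p lies at chr4:120772660-120772681 on the minus strand. miR-30c-5p comes from 2 hairpins, with 1 copy at chr1:23291714-23291736 (plus strand) and 1 at chr4:120769584-120769606 (minus strand). The 3 members shown are identical over their first 12 bases. Counted from 1 at the 5′ end, miR-30e-5p differs from miR-30a-5p by C13U alone, an identity of 95.5% over 22 bases. miR-30c-5p differs from miR-30a-5p by C13A, G14C, G18C, G19U and A20C, an identity of 77.3%. Of 1679 mature names in the RefSeq table, 4 carry the seed GUAAACA, namely these 3 and miR-384-5p. That count leaves out miR-30b-5p and miR-30d-5p because they had no matched entry. In the annotation the hairpin genes stand in neighbouring couples with 0 other genes starting between them: Mir30a with Mir30c-2 on chromosome 1, Mir30b with Mir30d on chromosome 15, and Mir30c-1 with Mir30e on chromosome 4, where both overlap Nfyc, which encodes a subunit of the transcription factor NF-Y.

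Each member was read by 30 spots per array, from 3 probes for miR-30a-5p and 2 for each of the others. Over the series, Feature Extraction called 163 to 360 miRNAs detected per array, 24 on all 16 arrays and 572 on at least 1, and the 285 with a detection call on 3 or 4 arrays of any 1 age were tested. All 5 members passed that filter. The 16 arrays lay on 2 slides, with the 4-week and 8-week arrays on slide 1 and the 36-week and 58-week arrays on slide 2, so the effects of age and of slide cannot be told apart for any pair of ages across slides. The quality report within the files asks for an evaluation of 3 arrays, called the marked arrays here, which are 36-week replicate 4 and the 4-week replicates numbered 1 and 4. The SD of the negative-control spots, which carry no miRNA probe, was 59.3 intensity units on 36-week replicate 4, 19.1 and 7.45 on the 4-week arrays, and 1.82 to 4.45 on the other 13. Of miRNAs known from blood cells, the red cell miRNAs miR-451a and miR-486a-5p and the myeloid and platelet miRNA miR-223-3p were detected on 16 of 16 arrays. The red cell miRNA miR-144-3p was detected on 6 arrays and miR-144-5p on 0. Of 5 leukocyte miRNAs, 3 were detected on some arrays and 2 on none.

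The miR-30 family was detected in nearly all sera. miR-30a-5p, miR-30b-5p, miR-30c-5p and miR-30d-5p were each detected on 15 of 16 arrays, and miR-30e-5p on 14. The array without a detection call for any member was 36-week replicate 4, and miR-30e-5p also had none on 4-week replicate 1. Both are marked arrays with a wide background, and the members' signals there were not low. Values below are log2 of the background-subtracted signal after the arrays were scaled to one another. A difference of 1 on this scale is a doubling, and values are compared between arrays, not between members.

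**Figure D1:**
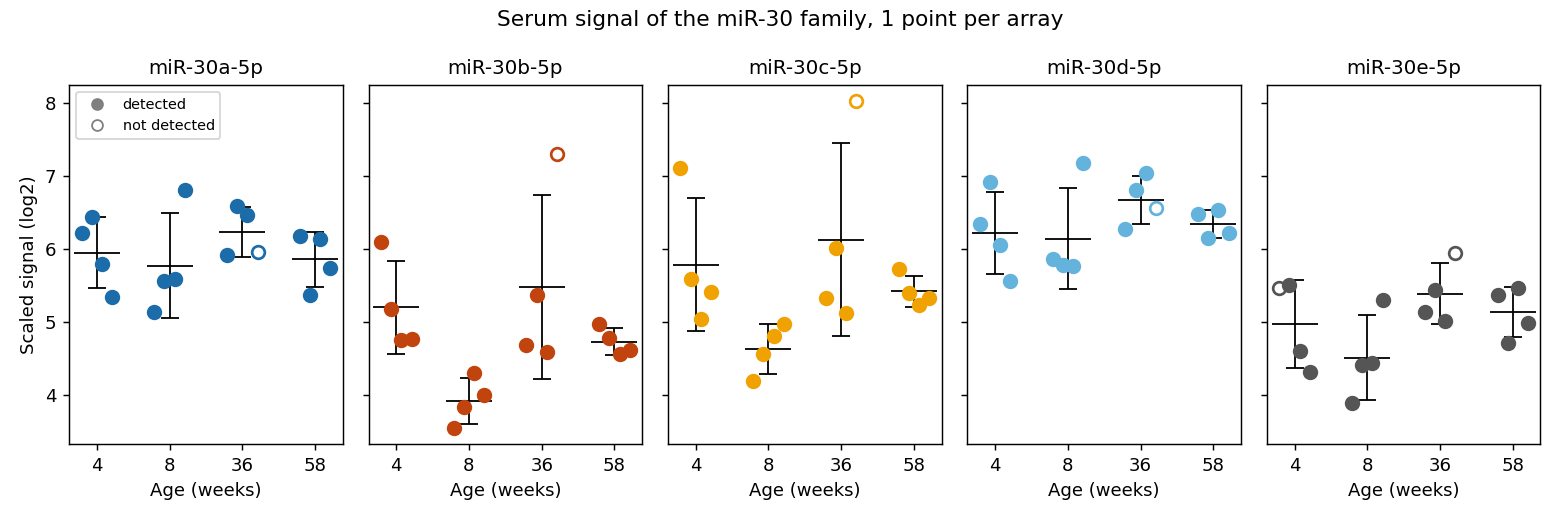
Scaled signal (log2) of each miR-30 member at 4, 8, 36 and 58 weeks, with 1 point per array (n = 4 per age, replicates 1 to 4 from left to right), the horizontal mark at the mean and bars of 1 SD. Open points are arrays on which the member was not called detected. The 8-week points of miR-30b-5p (3.55 to 4.30) and miR-30c-5p (4.19 to 4.98) lie below the points of the other ages, while the ages of the other members overlap. That separation was not kept without scaling, with quantile normalization, the deposited total signal, the brightest probe or normexp background correction. It was also lost when 36-week replicate 4 or the marked arrays were left out and the rest rescaled.

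None of the 5 members passed an adjusted p of 0.05 in any comparison between ages. The lowest mean of every member was at 8 weeks and the highest at 36 weeks, a shape most marked in miR-30b-5p and miR-30c-5p, but the position of the 36-week means of those members rested on 1 array. Between the youngest and the oldest mice, differences ran from -0.47 to 0.16 on the log2 scale, each smaller than its standard error, while without scaling they ran from -1.50 to -0.87. The shape was not kept under every alternative. All 5 members were lower, not higher, at 36 than at 8 weeks with quantile normalization, and miR-30a-5p, miR-30d-5p and miR-30e-5p with the deposited total signal. Without scaling all 5 kept the signs of the differences from 4 to 8, 8 to 36 and 36 to 58 weeks, but not the shape. Each member then rose less from 8 to 36 weeks than it had fallen from 4 to 8 weeks, so its highest mean was at 4 weeks. The lowest mean was then at 58 weeks for miR-30a-5p and miR-30d-5p and stayed at 8 weeks for the others.

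miR-30b-5p, made from the Mir30b hairpin that neighbours Mir30d, had scaled signals of 6.10, 5.18, 4.76 and 4.76 at 4 weeks, then 3.55, 3.83, 4.30 and 4.00 at 8 weeks, followed by 4.68, 5.36, 4.59 and 7.30 at 36 weeks and lastly 4.98, 4.78, 4.56 and 4.61 at 58 weeks, in the order of replicates 1 to 4. All 8-week arrays were below all arrays of the other ages, and the marked arrays 36-week replicate 4 and 4-week replicate 1 were the highest of all. The means were 3.92 ± 0.31 (SD, n = 4) for 8-week mice, 4.73 ± 0.19 at 58 weeks, 5.20 ± 0.63 at 4 weeks and 5.48 ± 1.26 at 36 weeks. In that order 8 weeks was separate from 58 weeks, while 58, 4 and 36 weeks overlapped with their neighbours. Leaving out 36-week replicate 4 with the scaling kept, the 36-week mean was 4.88 ± 0.42 (SD, n = 3), between those of 58 and 4 weeks.

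miR-30c-5p, a regulator of Ctgf in heart and of hepatic lipoprotein assembly, followed the same course. Its signals were 7.11, 5.59, 5.04 and 5.41 at 4 weeks, then 4.19, 4.56, 4.81 and 4.98 at 8 weeks, followed by 5.33, 6.02, 5.13 and 8.02 at 36 weeks and lastly 5.72, 5.39, 5.24 and 5.33 at 58 weeks. Again all 8-week arrays were below every other array, the nearest being 4-week replicate 3 at 5.04, and the same marked arrays were the highest. The means were 4.64 ± 0.34 (SD, n = 4) for 8-week mice, 5.42 ± 0.21 at 58 weeks, 5.79 ± 0.91 at 4 weeks and 6.12 ± 1.32 at 36 weeks, or 5.49 ± 0.47 (n = 3) at 36 weeks without replicate 4. Neighbouring ages above 8 weeks overlapped.

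miR-30a-5p, the member best known for repressing Becn1, showed no such separation. Its signals were 6.22, 6.44, 5.80 and 5.34 at 4 weeks, then 5.14, 5.57, 5.59 and 6.80 at 8 weeks, followed by 5.92, 6.58, 6.47 and 5.96 at 36 weeks and lastly 6.18, 5.37, 6.14 and 5.74 at 58 weeks. The ages overlapped throughout, and the lowest and the highest of the 16 values were both from 8-week arrays. Its means were 5.77 ± 0.72 (SD, n = 4) for 8-week mice, 5.86 ± 0.38 at 58 weeks, 5.95 ± 0.49 at 4 weeks and 6.23 ± 0.34 at 36 weeks, with no neighbours apart by more than their spread. On 36-week replicate 4, where miR-30b-5p and miR-30c-5p were at their highest, miR-30a-5p was at 5.96, within its usual range.

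miR-30d-5p, which has been followed as a circulating miRNA in heart failure, resembled miR-30a-5p. It gave 6.35, 6.91, 6.06 and 5.57 at 4 weeks, then 5.86, 5.78, 5.76 and 7.17 at 8 weeks, followed by 6.27, 6.80, 7.04 and 6.56 at 36 weeks and lastly 6.48, 6.15, 6.54 and 6.21 at 58 weeks. At 8 weeks 3 arrays lay close together and replicate 4 stood above them, higher than every array of the other ages. The means, 6.14 ± 0.69 (SD, n = 4) for 8-week mice, 6.22 ± 0.56 at 4 weeks, 6.34 ± 0.19 at 58 weeks and 6.67 ± 0.33 at 36 weeks, all overlapped with their neighbours.

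miR-30e-5p, which differs from miR-30a-5p by the single substitution given above, lay between the other patterns. It gave 5.47, 5.51, 4.60 and 4.32 at 4 weeks, then 3.90, 4.41, 4.44 and 5.30 at 8 weeks, followed by 5.14, 5.44, 5.02 and 5.95 at 36 weeks and lastly 5.37, 4.72, 5.46 and 4.99 at 58 weeks. Of the 8-week arrays 3 were below all 36-week and 58-week arrays, and replicate 4 lay within the range of those ages. The means were 4.51 ± 0.58 (SD, n = 4) for 8-week mice, 4.97 ± 0.61 at 4 weeks, 5.13 ± 0.35 at 58 weeks and 5.39 ± 0.41 at 36 weeks, and neighbouring ages overlapped.

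Between 4 and 8 weeks, ages on the same slide, 0 of 5 members passed (limma, against 0 of 285 tested miRNAs, 0%). At an unadjusted p under 0.05 the count was 1 of 5, against 6 of 285 (2.11%). That member was miR-30b-5p, lower at 8 weeks by a log2 difference of -1.28 ± 0.56 (SE; limma adjusted p = 0.536). miR-30c-5p differed by -1.15 ± 0.61 (limma adjusted p = 0.536) and miR-30e-5p by -0.47 ± 0.44 (limma adjusted p = 0.579). miR-30a-5p and miR-30d-5p differed by -0.18 ± 0.45 and -0.08 ± 0.44. All 5 were thus lower at 8 weeks (4 of them higher with quantile normalization), with a median of -0.47, but so were most miRNAs: the median of the 285 was -0.72 and 19.6% of them were higher.

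The arrays of miR-30b-5p and miR-30c-5p did not overlap between 4 and 8 weeks, which 11 of 285 miRNAs showed in the lower direction (3.86%), or 56 of 285 (19.6%) without the 3 marked arrays and with the scaling kept. With quantile normalization the differences were 0.07 for miR-30b-5p and -0.14 for miR-30c-5p, the median of all tested miRNAs was 0.20, and 57.9% were higher at 8 weeks. Without scaling 10.9% were higher. Without 4-week replicate 1, which had the highest miR-30b-5p and miR-30c-5p signals of that age, the difference of miR-30c-5p was -0.71. With the 3 marked arrays left out and the rest rescaled, the differences were -0.52 for miR-30b-5p and -0.16 for miR-30c-5p. The median of the 272 miRNAs tested in that setting was 0.09.

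Between 8 and 36 weeks, across the slides, 0 of 5 members passed (limma, against 0 of 285, 0%), and at an unadjusted p under 0.05 the count was 2 of 5, against 85 of 285 (29.8%). That count over all miRNAs depended on single arrays, from 9 of 241 without 8-week replicate 1 to 133 of 285 without 36-week replicate 1, and it was 19 of 279, with 0 members, without 36-week replicate 4. miR-30b-5p was higher at 36 weeks by 1.56 ± 0.56 (SE; limma adjusted p = 0.151) and miR-30c-5p by 1.49 ± 0.61 (limma adjusted p = 0.151). The difference of miR-30e-5p was 0.88 ± 0.44 (limma adjusted p = 0.154), and those of miR-30a-5p and miR-30d-5p were 0.46 ± 0.45 and 0.53 ± 0.44. The members' median, 0.88, stood beside 0.71 for all 285 tested, of which 62.1% were higher.

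36-week replicate 4 carried much of the size of these values. With that array out of the fit and the scaling kept, miR-30b-5p differed by 0.96 and miR-30c-5p by 0.86. With the scaling also redone on the other 15 arrays, which let 67 instead of 24 miRNAs set the scale, they differed by 0.45 and 0.35, and miR-30a-5p, miR-30d-5p and miR-30e-5p by 0.04, 0.05 and 0.18. Quantile normalization turned the sign of all 5, and 39.3% of the tested miRNAs were then higher at 36 weeks. Downweighting variable arrays (limma array weights) took 4 members past the threshold, miR-30a-5p, miR-30b-5p, miR-30c-5p and miR-30e-5p (limma adjusted p = 0.0403, 0.0190, 0.0190 and 0.0200), and 143 of the 285 miRNAs with them. The summed scaled signal of 3 striated muscle markers (miR-1a-3p, miR-133a-3p and miR-206-3p, the last detected on 0 arrays) also had a higher mean at 36 weeks, running from 7.86 to 9.83 in log2 units against 5.81 to 7.99 at 8 weeks, as did 5 leukocyte markers, 6.79 to 8.12 against 5.40 to 6.73, with miR-142a-5p and miR-155-5p on 0 arrays. Only the leukocyte set separated the arrays of these ages, narrowly, while the striated muscle set and all others overlapped. Means at 36 and 8 weeks were 12.1 and 11.9 for red cell, 7.34 and 7.19 for liver, and 8.05 and 7.99 for platelet and myeloid markers. Endothelium markers had a lower mean at 36 weeks, 5.23 ± 1.74 (SD, n = 4) against 5.63 ± 0.35. Their 36-week arrays ran from 2.92, with both markers at the floor, to 6.60, against 5.20 to 6.06 at 8 weeks. The lower mean rested on that lowest array. The part of any of these markers in the members' values was not tested.

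miR-30b-5p and miR-30c-5p also did not overlap between 8 and 36 weeks, in the higher direction, which 7 of 285 miRNAs showed (2.46%), or 26 of 285 (9.12%) without 36-week replicate 4 and with the scaling kept. The same members did not overlap between 8 and 58 weeks, as did 22 of 285 in the higher direction (7.72%). Across all ages, 2 of the 285 tested miRNAs had every 8-week array below every array of the other 3 ages (0.702%), and these were miR-30b-5p and miR-30c-5p, a pattern looked for only after their values were seen. With the 3 marked arrays left out and the scaling kept, 3 of 285 showed it (1.05%), miR-30b-5p and miR-30c-5p among them. It was kept by neither member without scaling, by the deposited total signal, the brightest probe alone, quantile normalization or normexp background correction, nor when 36-week replicate 4 or the marked arrays were left out and the rest rescaled.

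Between 36 and 58 weeks, both on slide 2, 0 of 5 members passed (limma, against 0 of 285, 0%), and 0 of 5 at an unadjusted p under 0.05, against 5 of 285 (1.75%). The differences were -0.75 ± 0.56 (SE) for miR-30b-5p, -0.71 ± 0.61 for miR-30c-5p, -0.38 ± 0.45 for miR-30a-5p, -0.33 ± 0.44 for miR-30d-5p and -0.25 ± 0.44 for miR-30e-5p. Their median of -0.38 stood beside -0.52 for all 285, of which 31.9% were higher at 58 weeks, 43.9% with quantile normalization and 20.0% without scaling. All 5 members were higher at 58 weeks with quantile normalization and with the deposited total signal. With 36-week replicate 4 out of the fit the values for miR-30b-5p and miR-30c-5p were -0.15 and -0.07, and with the scaling redone as well they were 0.06 and 0.14. The median over all miRNAs also turned, to 0.06 with 54.4% of 285 higher in the former case and to 0.30 with 66.7% of 279 higher in the latter. The 58-week arrays lay close together for 3 members, with an SD of 0.19 for miR-30b-5p and miR-30d-5p and 0.21 for miR-30c-5p. They were less close for miR-30a-5p (0.38) and miR-30e-5p (0.35).

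Between 4 and 58 weeks, the ends of the age range, 0 of 5 members passed (limma, against 1 of 285, 0.351%), and 0 of 5 at an unadjusted p under 0.05, against 13 of 285 (4.56%). The differences were -0.47 ± 0.56 (SE) for miR-30b-5p, -0.37 ± 0.61 for miR-30c-5p and -0.09 ± 0.45 for miR-30a-5p. They were 0.12 ± 0.44 for miR-30d-5p and 0.16 ± 0.44 for miR-30e-5p, and limma's adjusted p was 0.998 for each of the 5. The arrays of 0 members separated these ages, against 8 of 285 in the lower direction (2.81%) and 11 in the higher (3.86%). The median of all 285 was -0.00308, with 49.5% higher, 2.11% without scaling and 61.8% with quantile normalization. Without scaling the members differed by -1.12 (miR-30a-5p), -1.50 (miR-30b-5p), -1.40 (miR-30c-5p), -0.91 (miR-30d-5p) and -0.87 (miR-30e-5p), beside a median of -0.95 for all 285, and 0 of 5 passed.

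Over all 4 ages the moderated F test passed for 0 of 5 members (limma, against 1 of 285, 0.351%), with 0 of 5 at an unadjusted p under 0.05 against 13 of 285 (4.56%). limma's adjusted p was 0.477 for miR-30b-5p and miR-30c-5p, 0.479 for miR-30e-5p, 0.730 for miR-30d-5p and 0.809 for miR-30a-5p. With array weights it was 0.00327 for miR-30b-5p, 0.00877 for miR-30c-5p and 0.0320 for miR-30e-5p, and 203 of 285 miRNAs passed. The slope per doubling of age passed for 0 of 5 (limma, against 1 of 285, 0.351%), with 0 of 5 at an unadjusted p under 0.05 against 25 of 285 (8.77%). The slopes were 0.03 ± 0.10 (SE) for miR-30a-5p, 0.08 ± 0.15 for miR-30b-5p, 0.09 ± 0.15 for miR-30c-5p, 0.08 ± 0.10 for miR-30d-5p and 0.13 ± 0.10 for miR-30e-5p, all positive, as were 57.9% of the 285, or 41.4% without scaling. With slide as a block, so that the slope came from ages sharing a slide, all 5 were negative, from -1.22 for miR-30b-5p to -0.21 for miR-30d-5p, as were 214 of 285, with a median of -0.58 over all. In that fit 0 of 5 members and 0 of 285 miRNAs passed (limma), with 2 of 5 at an unadjusted p under 0.05 against 11 of 285.

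**Figure D2:**
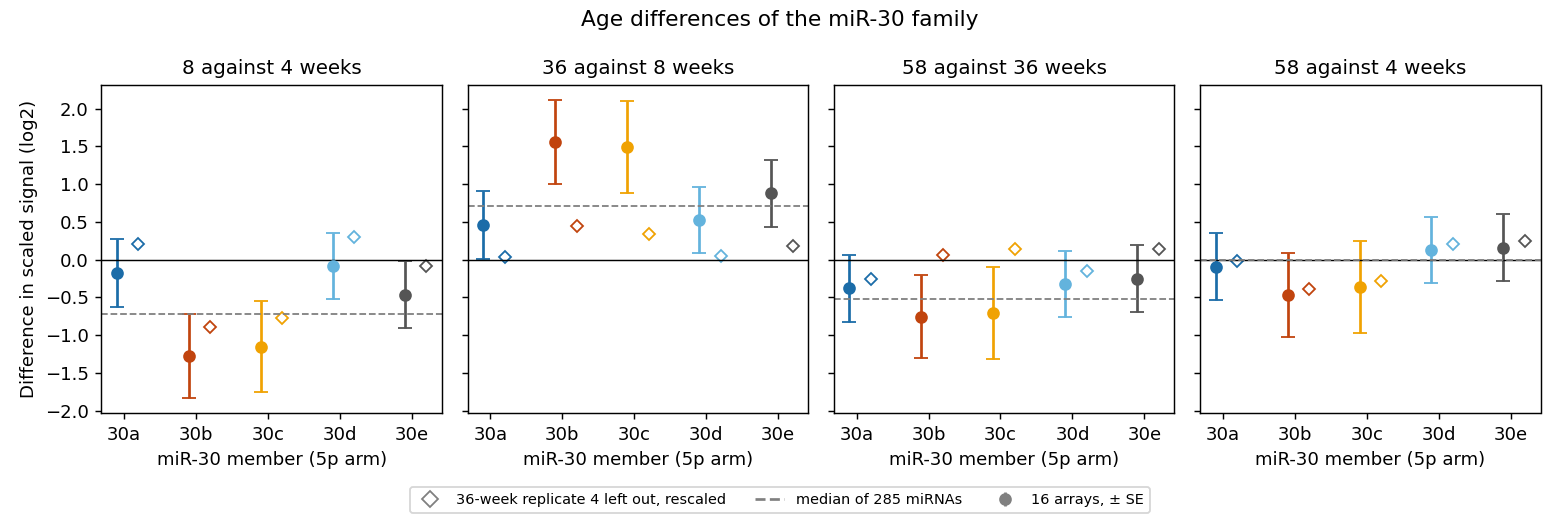
Difference in scaled signal (log2) between ages for each miR-30 member, with 1 panel per comparison. Filled points with bars are the estimates ± SE from 16 arrays, open diamonds the estimates with 36-week replicate 4 left out and the rest rescaled, and the dashed line the median of the 285 tested miRNAs. The estimates for miR-30b-5p and miR-30c-5p between 8 and 36 weeks lie at 1.56 and 1.49 with all arrays and at 0.45 and 0.35 without that one, and all 5 are below 0 there with quantile normalization.

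The members did not all vary together from array to array. miR-30a-5p and miR-30d-5p moved closely together over the 16 arrays (Pearson r = 0.917, Spearman rho = 0.912, permutation p = 1e-05 for each, the smallest that 100000 permutations can give, adjusted p = 5e-05 over 10 pairs of members). miR-30b-5p and miR-30c-5p did so too (r = 0.982, rho = 0.959, permutation p = 1e-05 and adjusted p = 5e-05 for each). Without the 2 arrays farthest from the median, r was 0.904 for the first of these pairs and 0.945 for the other. Within slide 1 the values were 0.943 and 0.958, and within slide 2 they were 0.891 and 0.998.

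Between these couples the relation did not pass. miR-30a-5p gave r = 0.275 with miR-30b-5p (rho = 0.329, permutation p = 0.312 and 0.211, adjusted p = 0.325 and 0.235). It gave r = 0.310 with miR-30c-5p (rho = 0.371, permutation p = 0.247 and 0.158, adjusted p = 0.325 and 0.218). miR-30d-5p gave r = 0.268 with miR-30b-5p and 0.291 with miR-30c-5p (rho = 0.294 and 0.359, permutation adjusted p = 0.325 for each r). Over the 13 unmarked arrays these 4 values of r were 0.470, 0.582, 0.428 and 0.541. In the same order they were 0.387, 0.458, 0.218 and 0.282 within slide 1 and 0.0385, 0.0237, 0.140 and 0.103 within slide 2.

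miR-30e-5p moved with both couples, with r = 0.761 for miR-30a-5p, 0.747 for miR-30d-5p, 0.727 for miR-30b-5p and 0.754 for miR-30c-5p (rho = 0.759, 0.782, 0.656 and 0.715, the permutation adjusted p for r being 0.00148, 0.00148, 0.00148 and 0.0010). Without the 2 arrays farthest from the median these were 0.726, 0.746, 0.632 and 0.739. With miR-30b-5p and miR-30c-5p its r was 0.674 and 0.718 within slide 1 and 0.785 and 0.800 within slide 2. Within slide 2 its r with miR-30a-5p and miR-30d-5p was 0.418 and 0.329, against 0.928 and 0.831 within slide 1. The couples that moved together most closely, a with d and b with c, come from hairpins that are not neighbours in the genome. Why they moved together was not tested. Nor was it tested whether the probes of a couple read each other's member, and sequences of miR-30b-5p and miR-30d-5p were not matched. All arrays share the scaling step, which by itself moves all members of an array alike.

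**Figure D3:**
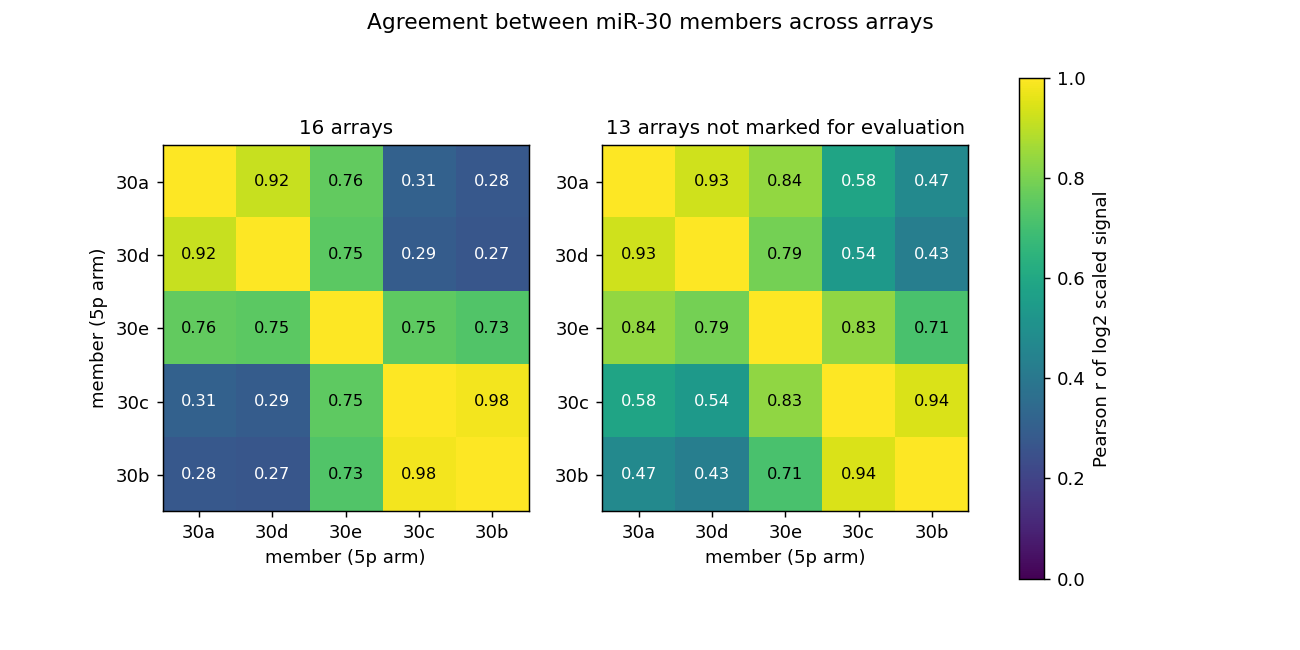
Pearson r between the log2 scaled signals of each pair of miR-30 members, over all 16 arrays on the left and over the 13 arrays not marked for evaluation on the right, with colour running from 0 to 1. miR-30a-5p with miR-30d-5p (0.92) and miR-30b-5p with miR-30c-5p (0.98) form the brightest off-diagonal cells, and the values between these couples are lower in both panels.

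Differences between members within an array do not depend on a scaling factor, and they show unequal change only. The log2 difference of miR-30b-5p minus miR-30c-5p had an SD of 0.18 over the 16 arrays, and that of miR-30a-5p minus miR-30d-5p an SD of 0.20. By contrast the SD was 0.89 for miR-30b-5p minus miR-30a-5p and 0.92 for miR-30c-5p minus miR-30d-5p, and 0.53 and 0.46 over the 13 unmarked arrays.

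miR-30b-5p minus miR-30a-5p was -0.12, -1.26, -1.04 and -0.58 on the 4-week arrays and -1.59, -1.73, -1.28 and -2.80 on the 8-week arrays. At 36 weeks it was -1.24, -1.22, -1.87 and 1.34, and at 58 weeks -1.20, -0.59, -1.58 and -1.13. The 8-week arrays were below the 4-week arrays without overlap, with the nearest values at 4-week replicate 2 (-1.26) and 8-week replicate 3 (-1.28), and they overlapped with the older ages. The 4-week values farthest above those of 8 weeks, -0.12 and -0.58, were on the marked replicates 1 and 4, while the unmarked replicates gave -1.26 and -1.04. With all arrays of both ages the mean difference between 8 and 4 weeks was -1.10. It was -0.59 after quantile normalization, -1.03 from the deposited total signal and -0.94 from the brightest probes, still without overlap, and -0.24 with normexp, with overlap. For miR-30c-5p minus miR-30d-5p the corresponding difference was -1.07, and the ages overlapped. These contrasts within arrays were chosen after the values were seen and carry no test.

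The background spread of an array moved with miR-30b-5p and miR-30c-5p, while its relation to the other 3 members did not pass. Against log2 of the SD of the negative-control spots, r over 16 arrays was 0.881 for miR-30b-5p (rho = 0.718, permutation p = 0.00012 and 0.00228, adjusted p = 0.00060 and 0.0114 over 10 relations) and 0.899 for miR-30c-5p (rho = 0.735, permutation p = 0.00011 and 0.00147, adjusted p = 0.00060 and 0.0114). Without 36-week replicate 4 and 4-week replicate 1, the 2 arrays farthest from the median, both values of r were 0.487, so the size of the relation rested on those arrays. Within slide 1, which holds 4-week replicate 1, r was 0.771 and 0.835. Within slide 2, which holds 36-week replicate 4, it was 0.962 and 0.952. Over the 13 unmarked arrays r was 0.543 for miR-30b-5p and 0.529 for miR-30c-5p. For miR-30e-5p r was 0.449 (rho = 0.291, permutation adjusted p = 0.266 and 0.694). For miR-30a-5p and miR-30d-5p r was 0.016 and 0.017 (rho = 0.065 and 0.026, permutation adjusted p = 0.957 for each r). Within slides 1 and 2 these values were 0.253 and 0.674 for miR-30e-5p, -0.0131 and -0.0377 for miR-30a-5p and -0.202 and 0.157 for miR-30d-5p. The 8-week arrays, where miR-30b-5p and miR-30c-5p were lowest, had background SDs of 2.01, 1.82, 3.54 and 1.95, and the part of background in the age differences was not tested.

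**Figure D4:**
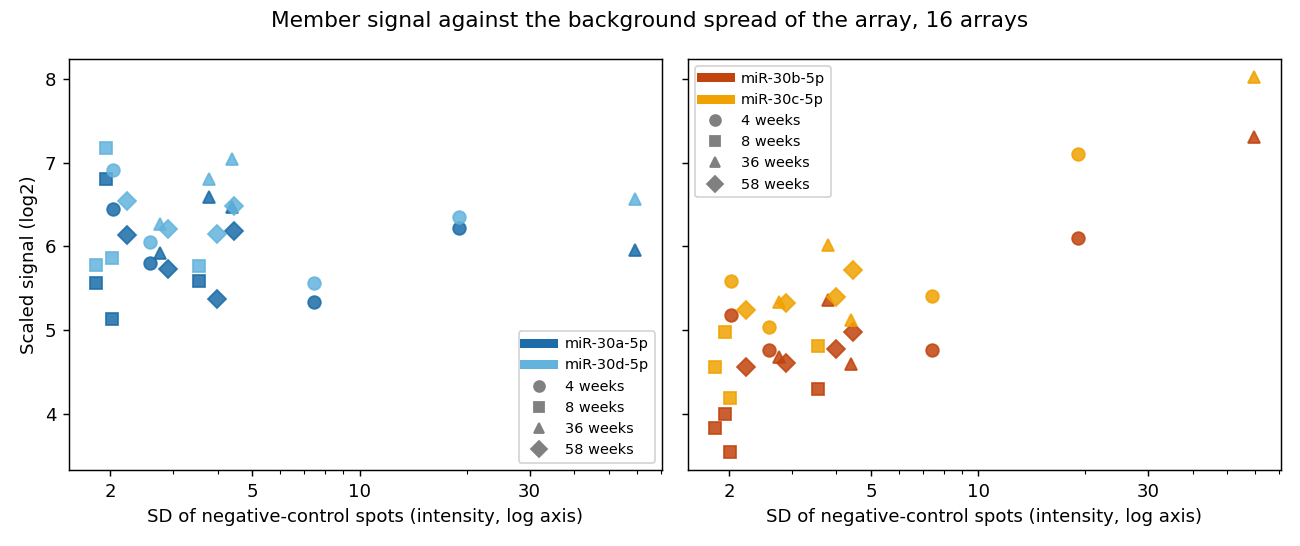
Scaled signal (log2) of miR-30a-5p and miR-30d-5p (left) and of miR-30b-5p and miR-30c-5p (right) against the SD of the negative-control spots of the same array, on a log axis, with 1 point per array and member and symbols for the 4 ages. The array with an SD of 59.3 has the highest miR-30b-5p (7.30) and miR-30c-5p (8.02) signals, while its miR-30a-5p (5.96) and miR-30d-5p (6.56) signals lie within the range of the other arrays.

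The red cell measure, log2 of miR-451a minus miR-23a-3p as used for haemolysis, ran from 2.64 to 4.19 in 4-week mice and from 2.14 to 3.65 in 8-week mice. In the older mice it ran from 2.62 to 4.55 (36 weeks) and from 2.54 to 3.08 (58 weeks). The ages overlapped. Its relation to the members did not pass, with r from -0.125 for miR-30c-5p to 0.294 for miR-30a-5p (rho = -0.132 and 0.288, permutation adjusted p = 0.957 and 0.677 for r). Within slides 1 and 2 r was 0.121 and -0.304 for miR-30c-5p, 0.134 and 0.613 for miR-30a-5p, and -0.0363 and 0.836 for miR-30d-5p. Over the 13 unmarked arrays r was 0.559 for miR-30a-5p and 0.525 for miR-30d-5p (0.199 over all 16). Without the 2 arrays farthest from the median of the red cell measure these were 0.508 and 0.330.

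The separate probes of a member mostly gave the same direction. Between 4 and 8 weeks the brighter probe of miR-30b-5p differed by -1.13 and its dimmer probe by -1.56, and the brighter and dimmer probes of miR-30c-5p by -1.03 and -1.50. Both brighter probes separated 4 from 8 weeks without overlap, while neither dimmer probe did, and the dimmer probe of miR-30b-5p was at the floor on 3 arrays. Of the 3 probes of miR-30a-5p, 1 gave 0.04 and the others -0.23 and -0.19. On 36-week replicate 4 the spot-to-spot coefficient of variation of the brightest probe was 11.7% for miR-30b-5p and 8.54% for miR-30c-5p, within the range of the other arrays (6.87% to 13.6% and 5.73% to 13.0%). It was 17.9% for miR-30a-5p, 21.8% for miR-30d-5p and 37.9% for miR-30e-5p, above theirs (at most 9.43%, 10.4% and 13.7%). The dimmer and brighter probes were nearly equal on that array before scaling, at 153 and 164 intensity units for miR-30b-5p and 263 and 260 for miR-30c-5p. On 4-week replicate 1 they were at 73.9 and 122, and at 157 and 237. On unmarked arrays the dimmer probes lay further below, as on 58-week replicate 2 with 10.3 and 22.6, and 15.8 and 34.5. So did those on the marked 4-week replicate 4, with 22.1 and 79.5, and 40.7 and 118. The cause was not tested.

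Among 8 other products of the miR-30 hairpins and miRNAs of the same seed, 1 was detected and 7 were on 0 of 16 arrays, the latter including miR-384-5p, which shares the seed. The detected one was miR-30a-3p, on 5 arrays, of which 3 were from 8-week mice, 1 each from 4-week and 58-week mice and 0 from 36-week mice. Its signals lay between the floor of 1.92 and 3.52, its means were 2.61, 2.57, 2.64 and 2.34 in order of age, and it did not pass the F test (limma adjusted p = 0.949), although it did with array weights (limma adjusted p = 0.0344), as did 203 of 285.

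Of 111 other miRNAs detected on at least 12 arrays, the 5 whose pattern was most like the mean of the members over the 16 arrays were miR-425-5p (Pearson r = 0.854), miR-212-3p (0.818), miR-1198-5p (0.801), miR-193b-3p (0.764) and miR-345-5p (0.749). Over the 13 unmarked arrays these values were 0.755, 0.577, 0.546, 0.499 and 0.439, and miR-133a-3p, ranked 14 over all arrays with 0.661, was above them with 0.827. For single members, miR-425-5p led for miR-30b-5p (0.945) and miR-30c-5p (0.952), while the muscle miRNA miR-133a-3p led for miR-30a-5p (0.746) and miR-30e-5p (0.725), and miR-29a-3p for miR-30d-5p (0.759). miR-425-5p had means of 4.76 ± 0.62 (SD, n = 4) for 4-week mice, 4.09 ± 0.29 at 8 weeks, 5.19 ± 1.17 at 36 weeks and 4.65 ± 0.24 at 58 weeks. All arrays share their scaling and background, so these values describe likeness over the arrays and are given without a test.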

How the data were processed

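The deposited files hold the scanner output of 16 one-colour arrays. The spot intensities, background-subtracted, and the detection and outlier flags were made by the authors with Agilent Feature Extraction, whose version is 11.5.1.1 per the file headers and 11.5 in the submitters' processing notes. Spots without an outlier flag were averaged per probe, and probes per miRNA. Arrays were divided by the 75th percentile of the 24 miRNAs detected on all arrays, none of them a miR-30 member, then floored at 3.79 intensity units and taken to log2. The tests used limma (version 3.58.1, under R 4.3.3) without a block over 285 miRNAs, with Benjamini-Hochberg adjustment over all of them and a threshold of 0.05. The scripts were tested on simulated data. The number of arrays limits the precision. The labels count mice, with an array for each, so the spread holds differences between animals and between arrays, which cannot be told apart. The members are named by rule, as are the 5 other miRNAs closest to their mean and detected list members. Members and lists were chosen with earlier results of these data known. Alternatives changed scaling, summarizing, background correction, filter, floor, weights, blocks and arrays.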

Additional observations from a re-analysis of the deposited data

Results flagged for a closer look

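At 8 weeks the scaled signal of miR-30d-5p on replicate 4 was 7.17, far from the other 3 arrays of that age, which lay between 5.76 and 5.86. Negative-control spots had an SD of 3.54 intensity units on 8-week replicate 3, against 1.82 to 2.01 on the other 8-week arrays, and 59.3 on 36-week replicate 4, against 2.76 to 4.39. These 3 were found in 24 groups of 4 arrays, where chance at 1 in 20 would give about 1.2.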

How the results depend on the processing

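Counts of members past the threshold were 0 in each comparison under every alternative run except array weights, with 4 members between 36 and 8 weeks and 3 in the F test. Member order below is a, b, c, d, e unless letters are given. Without scaling, differences between 58 and 4 weeks were -0.91 (d) and -0.87 (e), and slopes -0.18, -0.13, -0.12, -0.12 and -0.083. Quantile normalization gave 0.66 (a), 0.071 (b), 0.68 (d) and 0.69 (e) between 8 and 4 weeks, -0.63, -0.20, -0.0087, -0.67 and -0.46 between 36 and 8, 0.30, 0.032, 0.18, 0.52 and 0.27 between 58 and 36, 0.33 (a) and 0.029 (c) between 58 and 4, and slopes of -0.0023 (a) and -0.040 (b). The deposited total signal gave 0.30 (e) between 8 and 4 weeks, -0.47 (a), -0.59 (d) and -0.11 (e) between 36 and 8, 0.52, 0.42, 0.72, 0.79 and 0.60 between 58 and 36, and slopes of -0.077 (a), -0.090 (b), -0.11 (c) and -0.048 (d). The brightest probe gave 0.014 (d) between 8 and 4 weeks. Normexp gave 0.021 (a) and 0.056 (d) between 8 and 4 weeks, and 0.33 (a), 0.32 (b) and 0.24 (c) between 58 and 4, where array weights gave 0.16 (c). With slide as a block the slopes were -0.30, -1.22, -1.11, -0.21 and -0.43. Without the 3 marked arrays the values were 0.17 (a) and 0.18 (d) between 8 and 4 weeks, 0.13 (b), 0.20 (c) and 0.21 (e) between 58 and 36, and 0.062 (a), 0.089 (b) and 0.43 (c) between 58 and 4. With 36-week replicate 4 out of the fit only, chosen after seeing the data, the slope of miR-30b-5p was -0.0014. The cause of these turns was not tested.

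Leaving out each array in turn gave, between 8 and 4 weeks, -0.52 to 0.21 (a) and -0.42 to 0.31 (d), the highest without 36-week replicate 4. Between 58 and 36 weeks it gave -1.05 to 0.062 (b), -1.04 to 0.14 (c) and -0.38 to 0.15 (e), the highest again without that array. Between 58 and 4 weeks it gave -0.30 to 0.071 (a), -0.62 to 0.075 (c), -0.095 to 0.35 (d) and -0.058 to 0.34 (e). Slopes ran from -0.035 to 0.16 (b) and from -0.024 to 0.20 (c), lowest without 36-week replicate 4 and highest without 4-week replicate 1. The count of members with all 8-week arrays lowest was 0 to 2, being 0 without 36-week replicate 4. It was also 0 without scaling, with quantile normalization, total signal, brightest probe, normexp and without the marked arrays, and 2 otherwise.

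With the replicate number as a block 0 members passed. The numbers did not pair the mice: deviations of same-numbered arrays had a mean r of -0.07 over 24 pairs, and 2 of 16 arrays correlated best with their own number. Slide as a block was fitted for the slope only, since each age lies on 1 slide. Scaling on all miRNAs was not run, since its percentile was not above 0 on some array.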
